A study of Mus musculus with 11 samples.

Results

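Interferon-stimulated genes are genes that cells switch on when interferon binds its receptors, and 34 of them were followed here through sorted bone marrow cells of mice. They were chosen by name from genes known to respond to interferon, with earlier results of these data known. Of the 16507 genes listed in the table of adult and perinatal libraries (the age table) all 34 were among the rows. The table of labelled Sca1-negative and Sca1-positive libraries (the Sca1 table) lists 33 of them among 14267 genes, without Oas3, and the table of Igf1r knockout and control libraries (the knockout table) lists 34 among 14910.

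PolyA RNA was sequenced from 11 samples of bone marrow cells whose cell type the labels give as BMMSCs. The adult group held 3 wild-type samples sorted for PDGFRa and CD51. The perinatal group labelled Sca1-positive held 3 wild-type samples, called postnatal in the labels, sorted for PDGFRa and Sca1 and Cre-negative by their titles. The perinatal group labelled Sca1-negative held 2 wild-type postnatal samples (replicates 2 and 3) sorted for PDGFRa without Sca1. The Igf1r knockout group held 3 samples sorted for PDGFRa and Sca1, Cre-positive by their titles, whose labels give neither an age nor the driver of Cre. In the design, adult and perinatal samples differed in age and in sort gate at once, and knockouts and controls in deletion and in Cre, so these effects cannot be told apart. Whether replicates were separate animals is not stated, and a p-value here therefore covers only spread among the samples given, possibly technical in part.

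Type I and type III interferons bind paired receptors, the kinases JAK1 and TYK2 phosphorylate STAT proteins, among them STAT2, and a complex that includes STAT2 and IRF9 binds the interferon-stimulated response element (ISRE) in promoters. Type II interferon acts through the gamma-activated sequence (GAS). The products sense viral RNA, degrade it or block its translation, tether or disrupt virus particles, and attract lymphocytes, and many cells also hold a low resting level of them. In bone marrow, interferon acts on blood stem cells, macrophages and stromal cells.

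The promoters of 5 members are shown because they carry the motifs of the pathway and belong to genes at both ends of the adult comparison or to the archetypal member. Each is the 250 bases before the annotated start, written 5′ to 3′ on the strand of the gene, from the RefSeq promoter table on GRCm38.p6, with matches to the ISRE core or to GAS in capitals. The windows are chr5:120777660-120777909 (minus strand) for Oas3, chr5:120907526-120907775 (minus) for Oas1a, chr4:156200819-156201068 (minus) for Isg15, chr5:92348890-92349139 (minus) for Cxcl10 and chr11:53769764-53770013 (plus) for Irf1.
Oas3: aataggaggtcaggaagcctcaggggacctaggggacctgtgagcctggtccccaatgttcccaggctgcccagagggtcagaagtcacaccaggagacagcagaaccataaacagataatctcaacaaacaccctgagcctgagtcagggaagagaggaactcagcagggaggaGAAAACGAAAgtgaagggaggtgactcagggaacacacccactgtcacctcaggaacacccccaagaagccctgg
Oas1a: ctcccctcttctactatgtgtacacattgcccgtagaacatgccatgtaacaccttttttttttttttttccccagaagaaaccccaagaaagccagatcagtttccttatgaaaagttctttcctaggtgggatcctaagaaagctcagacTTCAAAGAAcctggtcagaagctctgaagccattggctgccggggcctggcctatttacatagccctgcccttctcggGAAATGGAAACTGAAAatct
Isg15: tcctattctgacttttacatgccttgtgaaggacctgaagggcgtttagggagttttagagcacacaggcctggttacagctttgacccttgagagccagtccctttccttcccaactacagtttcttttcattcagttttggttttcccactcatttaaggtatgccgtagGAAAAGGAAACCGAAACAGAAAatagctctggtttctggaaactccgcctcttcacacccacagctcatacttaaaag
Cxcl10: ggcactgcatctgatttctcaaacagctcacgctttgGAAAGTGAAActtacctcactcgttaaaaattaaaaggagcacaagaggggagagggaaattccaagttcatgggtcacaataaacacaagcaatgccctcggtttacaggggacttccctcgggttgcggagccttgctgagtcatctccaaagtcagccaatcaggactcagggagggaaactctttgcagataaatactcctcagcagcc
Irf1: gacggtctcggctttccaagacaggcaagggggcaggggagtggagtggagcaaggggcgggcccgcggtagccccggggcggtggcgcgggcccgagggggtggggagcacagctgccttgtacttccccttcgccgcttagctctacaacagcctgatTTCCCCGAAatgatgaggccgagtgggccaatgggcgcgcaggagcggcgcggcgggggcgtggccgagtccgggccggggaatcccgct
The capitals mark 1 ISRE core in Oas3, 1 GAS match followed by 2 overlapping ISRE cores in Oas1a, 3 overlapping ISRE cores in Isg15, 1 ISRE core in Cxcl10 and 1 GAS match in Irf1.

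The ISRE core was searched on both strands as GAAA, any 2 bases and GAAA, and GAS as TTC, any 3 bases and GAA, which reads the same on both strands. The search window ran from 250 bases before to 50 bases after each annotated start, and 26 of the 34 members had at least 1 window in the table. An ISRE core stood in 15 of those 26 members (57.7%), against 3.99% of the 27025 genes with a window. GAS stood in 8 of 26 members (30.8%), against 9.55% of all genes, and the 2 motifs shared bases in Bst2 only among the members. Such a match is a description of letters, not evidence of a bound site.

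**Figure D1:**
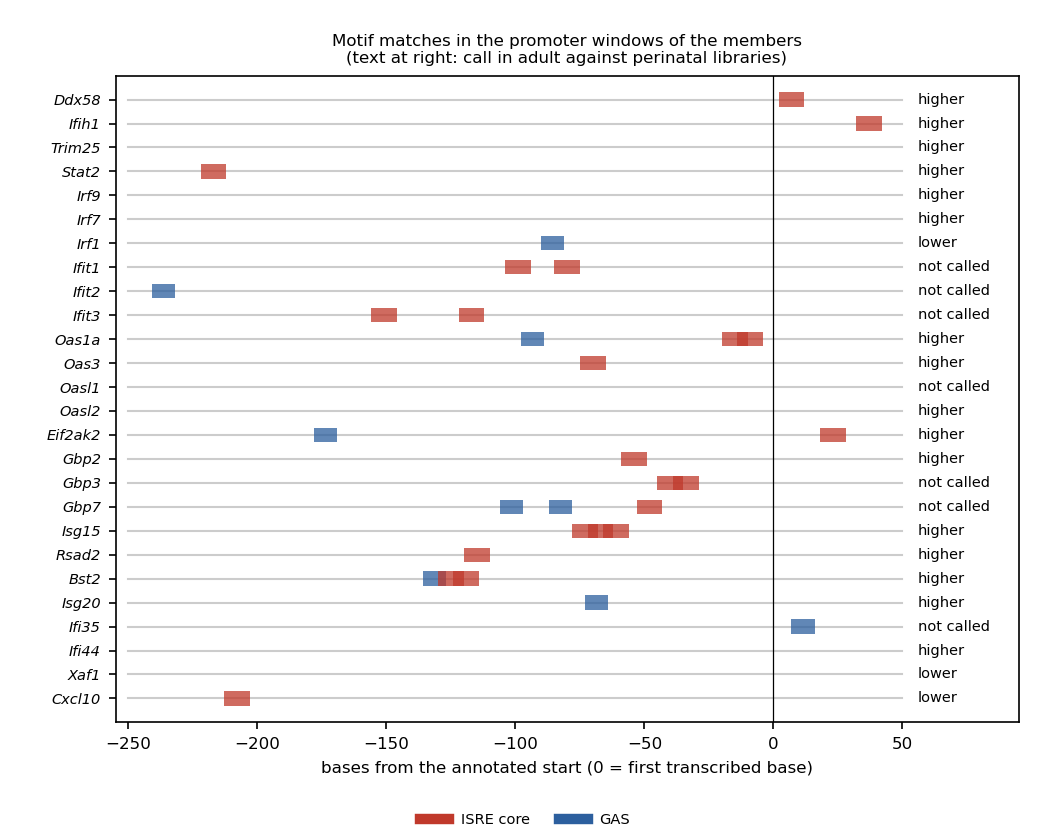
Matches to the ISRE core (red) and to GAS (blue) in the promoter windows of the 26 members with a window, as bases from the annotated start on the x axis, with each member's call in the adult comparison at the right. ISRE cores lie in 15 members, among them members called higher, members called lower and members not called.

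Total counts per library ran from 13412316 to 23782217, so that 3 counts, taken as the floor of a library, equalled 0.126 to 0.224 CPM (counts scaled to a common library total), a limit that covers counting error only. The perinatal libraries 2 and 3 labelled Sca1-positive recurred in all 3 tables, every listed member having equal counts, while replicate 1 differed between the age and knockout tables and matched in 0 of 34 members. Ly6a, the gene for Sca1, went against the labels in the Sca1 table. It had 239 and 145 counts in the libraries 2 and 3 labelled Sca1-positive and 10159 and 9112 in those labelled Sca1-negative. It went with the labels in control 1 of the knockout table, at 8624 counts, and in the knockouts, at 12936 to 22125. The age table does not list Ly6a, so its perinatal library 1 could not be checked. Igf1r, the deleted gene, had 8.20, 4.22 and 3.24 CPM in the knockouts and 29.5 to 31.7 CPM in the controls. In the adult libraries Pdgfra stood at 13.4 to 15.2 CPM, against 235 to 279 CPM in the perinatal libraries, and Itgav, the gene for CD51, at 271 to 305 CPM against 47.6 to 51.9 CPM.

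In the adult libraries most interferon-stimulated genes stood above their perinatal level, led by the OAS genes, whose enzymes make the messenger that activates RNase L, and by Parp14 and Mx1. With edgeR's quasi-likelihood test at an adjusted p under 0.05, 23 of the 34 members were higher in adult libraries, 3 were lower (Cxcl10, Irf1 and Xaf1) and 8 were not called. The shares over all 13757 genes tested were 37.4% higher and 39.7% lower. The median log2 fold change was 1.40 over the members and -0.06 over all genes. On TMM-scaled CPM, the scale on which overlap was counted, groups did not overlap in 23 members higher in adults and in 3 lower, against 39.7% and 41.6% of all genes. Of the 34 tested, Oas1a, Oas2, Oas3, Mx1 and Ifi44 reached the filter on low counts through the adult group only, and Cxcl10 through the perinatal group only, so their difference is partly set by the filter.

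**Figure D2:**
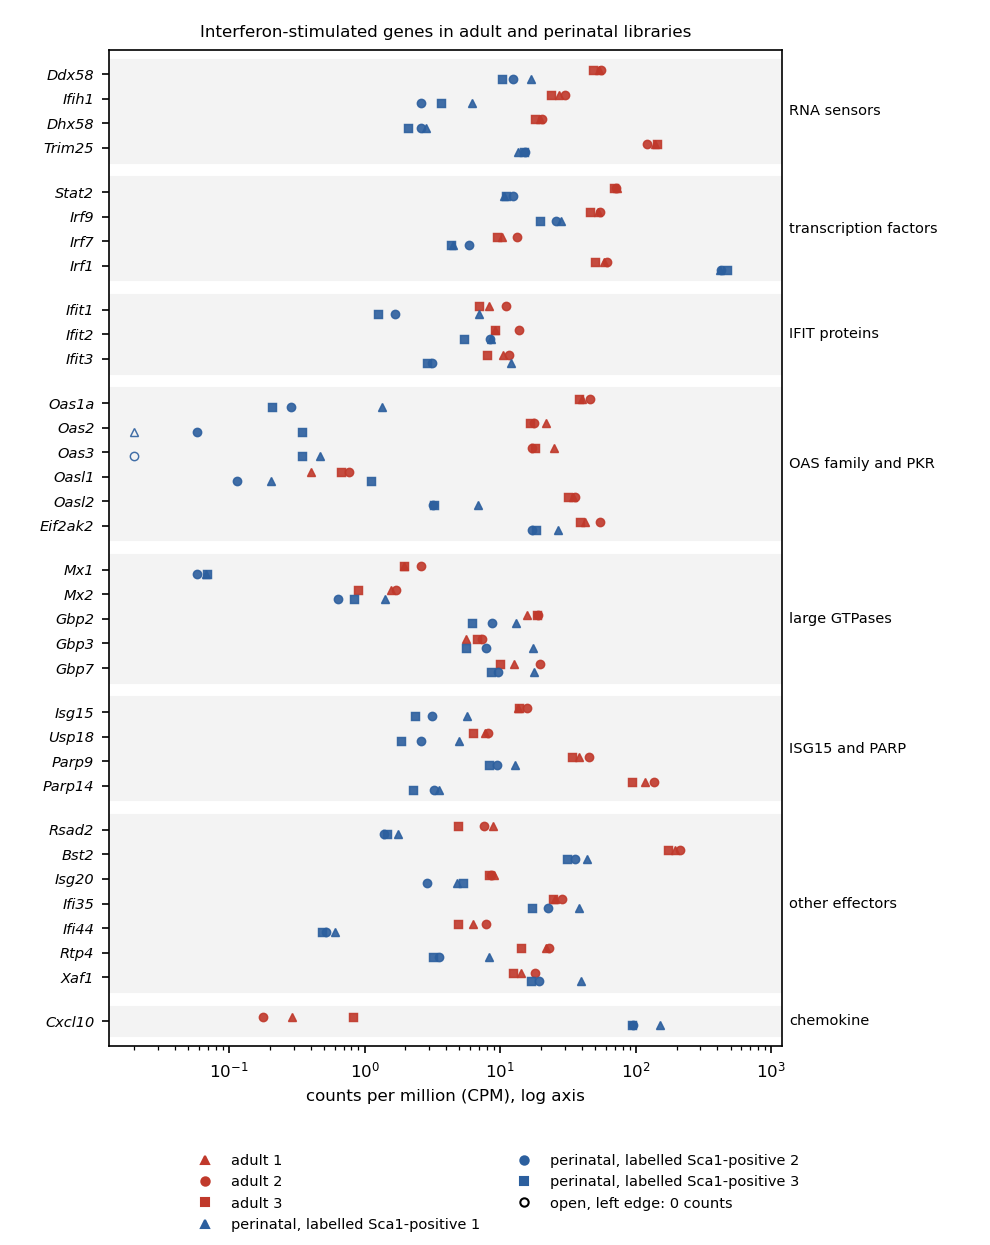
CPM of each member (log axis) in the 3 adult (red) and 3 perinatal (blue) libraries of the age table, with 1 symbol per replicate and members grouped by role. All 4 RNA sensors and most OAS genes are separated with adults higher, Irf1 and Cxcl10 are separated with adults lower, and perinatal library 1 (triangles) lies within or above the adult range in Ifit3 and Gbp7 and next to it in Ifit1.

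All 4 genes of RNA sensing rose, against 37.4% of all genes. Trim25 (chr11:88999376-89020293, plus strand, mm10), a ubiquitin ligase that activates RIG-I, stood at 139, 121 and 143 CPM in the adult libraries and at 13.5, 15.2 and 14.9 CPM in the perinatal ones. No adult library came near the perinatal range, and the log2 fold change was 2.94 ± 0.14 (SE, n = 3 and 3, adjusted p = 2.08e-06). Dhx58, the RNA helicase LGP2, stood at 19.6, 20.3 and 18.0 CPM in adults and at 2.83, 2.60 and 2.07 CPM in perinatal libraries. Its log2 fold change was 2.67 ± 0.19 (adjusted p = 9.93e-06). The helicases Ifih1 (MDA5) and Ddx58 (RIG-I), which detect viral RNA and signal through MAVS, rose by 2.43 ± 0.31 and 1.71 ± 0.19 on the log2 scale. Taken as a sum, the 4 genes gave 226 to 239 CPM in adult libraries and 31.1 to 39.3 CPM in perinatal ones.

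The transcription factors split. Stat2 (chr10:128270559-128292849, plus strand), the partner of IRF9 in the ISRE-binding complex, stood at 72.3, 71.7 and 68.6 CPM in adults and at 10.7, 12.4 and 11.1 CPM in perinatal libraries (log2 fold change 2.37 ± 0.12, adjusted p = 2.67e-06). Irf9 and Irf7, the latter the factor that amplifies interferon gene transcription, rose by 0.79 ± 0.16 and 0.89 ± 0.21. Irf1 (chr11:53770014-53778374, plus strand), a factor induced through GAS, went the other way, with 58.3, 61.9 and 50.4 CPM in adults and 414, 425 and 469 CPM in perinatal libraries. The groups lay far apart, with a log2 fold change of -3.21 ± 0.14 (adjusted p = 1.54e-06). Fos, an immediate early gene that responds to cell handling, moved with it, at 9.02 to 11.8 CPM in adults and 3353 to 4638 CPM in perinatal libraries, and its part in the result for Irf1 was not tested.

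Within the family of Oas genes and the kinase PKR (Eif2ak2), 5 of 6 members rose, against 37.4% of all genes. Among them Oas1a, Oas2 and Oas3 reached the filter on low counts through the adult group only, so this count is partly set by the filter. The 3 genes on chromosome 5 between 120730333 and 120907521 moved the furthest. Oas2 had 373, 299 and 221 counts in adults, or 21.6, 17.6 and 16.5 CPM, and 0, 1 and 5 counts in perinatal libraries. Oas3 had 432, 292 and 242 counts in adults and 7, 0 and 5 in perinatal libraries. The perinatal libraries were thus near or at the floor for both genes. Per total count, the adult level of Oas2 was 146 times the perinatal one (95% exact counting interval 66.6 to 398, which covers counting error only), and that of Oas3 78.7 times (44.9 to 153).

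Oas1a, the third of these genes, stood at 39.9, 45.9 and 38.0 CPM in adults and at 1.35, 0.289 and 0.207 CPM in perinatal libraries (log2 fold change 5.80 ± 0.50, adjusted p = 2.87e-05). Of the 50-base words in its transcripts, 57.6% also occur in Oas1g, so its counts may include reads of that gene. Oasl2 rose by 2.67 ± 0.30 and Eif2ak2, which halts translation when it binds double-stranded RNA, by 0.86 ± 0.21. Oasl1, a repressor of Irf7 translation, was not called (0.13 ± 0.78), with 7, 13 and 9 counts in adults and 3, 2 and 16 in perinatal libraries.

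The 3 IFIT genes, whose proteins bind the ends of viral RNA, were not called. Ifit1 stood at 8.33, 10.96 and 7.01 CPM in adults and at 6.95, 1.67 and 1.25 CPM in perinatal libraries. Ifit3 stood at 10.5, 11.7 and 7.98 CPM in adults and at 12.0, 3.12 and 2.90 CPM in perinatal libraries. In Ifit3 perinatal library 1 lay above every adult library, and in Ifit1 just under the lowest adult library in unscaled CPM and within the adult range after TMM scaling, while libraries 2 and 3 lay below in both genes. Without perinatal library 1, Ifit1 and Ifit3 were called higher in adults, with log2 fold changes of 2.32 and 1.48 (adjusted p = 0.000116 and 0.000407, over alternatives 0.000116 to 0.798 and 0.000407 to 0.805). The fold change of Ifit3 was -0.50 where perinatal library 1 was the only perinatal library kept. In Ifit3, 51.2% of the 50-base words also occur in Ifit3b. Perinatal library 1 was the highest of the 3 perinatal libraries in 26 of the 34 members, in unscaled CPM. The share of all genes highest in that library was not counted, so this number is no result about the members.

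Of the 5 large GTPases 2 rose, a share near the 37.4% of all genes called higher. Of these, Mx1 reached the filter on low counts through the adult group only. Mx1 (chr16:97447035-97462907, minus strand), which blocks influenza virus, had 34, 44 and 26 counts in adults and 1 count in each perinatal library, 33.9 times per total count (95% exact counting interval 11.3 to 167). Gbp2, a guanylate-binding protein that attacks the vacuoles of pathogens, was higher by 0.67 ± 0.27 (adjusted p = 0.0493), a call lost in 8 of 15 alternatives (adjusted p 0.00125 to 0.358). Gbp7 overlapped between groups, at 12.7, 19.6 and 9.99 CPM in adults and 17.7, 9.58 and 8.58 CPM in perinatal libraries, and 12.7% of its 50-base words also occur in other genes, mostly Gm43802. Mx2 (0.28 ± 0.42) and Gbp3 (-0.93 ± 0.41) were not called either.

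All 4 genes of ISG15 conjugation and the PARP family rose, against 37.4% of all genes. Parp14 (chr16:35832874-35871544, minus strand), an enzyme that adds ADP-ribose to proteins, stood at 117, 137 and 93.7 CPM in adults and at 3.51, 3.23 and 2.28 CPM in perinatal libraries. Every adult library was far above every perinatal one, with a log2 fold change of 4.99 ± 0.22 (adjusted p = 1.59e-06). Parp9, its partner at interferon-responsive promoters, rose by 1.66 ± 0.20, and Isg15, the ubiquitin-like modifier, by 1.68 ± 0.31. On its exons Parp9 overlaps Dtx3l on the opposite strand by 458 bases, and the strand setting of the counting is not given in the sources used here. Usp18, which removes ISG15 and damps the receptor, was higher by 0.96 ± 0.36 (adjusted p = 0.0395), a call lost in 8 of 15 alternatives (adjusted p 0.00065 to 0.304).

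Among the other effectors 5 of 7 rose, against 37.4% of all genes. Of these, Ifi44 reached the filter on low counts through the adult group only, so this count is partly set by the filter. Bst2 (tetherin), which holds budding virus at the cell surface, stood at 195, 213 and 173 CPM in adults and at 44.0, 35.6 and 31.3 CPM in perinatal libraries (log2 fold change 2.12 ± 0.16, adjusted p = 1.47e-05). Ifi44 stood at 6.31, 7.89 and 4.92 CPM in adults and at 0.607, 0.519 and 0.484 CPM in perinatal libraries (3.28 ± 0.30, adjusted p = 3.79e-05). Neither gene overlapped between groups. Rsad2 (viperin), which makes a chain-terminating nucleotide, and Rtp4 rose by 1.94 ± 0.29 and 1.72 ± 0.39. The exonuclease Isg20 was higher by 0.72 ± 0.26, a call lost in 6 of 15 alternatives (adjusted p 0.00837 to 0.0907).

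Xaf1, a pro-apoptotic partner of XIAP, fell by 1.03 ± 0.33 on the log2 scale (adjusted p = 0.0219), from 39.7, 19.4 and 16.9 CPM in perinatal libraries to 14.3, 18.0 and 12.5 CPM in adults. Its groups overlapped in unscaled CPM but not after scaling, and 3 of 15 alternatives lost the call (adjusted p 0.000607 to 0.0900). In the TPM that the authors deposited, which scale by length, Xaf1 went the other way. It stood at 40.4 ± 6.90 TPM in adults and 19.5 ± 9.01 TPM in perinatal libraries (SD, n = 3 and 3). Ifi35 was not called, at 25.2, 28.7 and 24.5 CPM in adults and 37.8, 22.3 and 17.1 CPM in perinatal libraries. In TPM it lay at 33.8 ± 1.32 in adults and 27.2 ± 9.24 in perinatal libraries. Cxcl10 (chr5:92346638-92348889, minus strand), a chemokine that attracts T cells through CXCR3, had the furthest fall, with 5, 3 and 11 counts in adults and 2246, 1654 and 1354 in perinatal libraries. That is 0.289, 0.177 and 0.820 CPM against 151, 95.5 and 93.7 CPM, with a log2 fold change of -8.37 ± 0.45 (adjusted p = 3.59e-06). The adult libraries sat at or near the floor, and Cxcl10 reached the filter on low counts through the perinatal group only. On its exons 133 bases overlap Art3 on the opposite strand.

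Leaving out perinatal libraries 2 and 3, in which Ly6a was low, left library 1 as the only perinatal library, taken to vary like the adults. The median log2 fold change of the members was then 1.06, against 1.40 with all libraries. Among members whose call changed, Gbp3 and Ifi35 stood at -1.67 and -0.78. Eif2ak2, Gbp2, Usp18 and Isg20 stood at 0.52, 0.20, 0.32 and 0.59.

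The adult libraries also differed in marker genes of other cells. The summed level of 15 macrophage and monocyte markers was 25442 to 28601 CPM in adults and 42.4 to 52.3 CPM in perinatal libraries, with Ly6c2 alone at 0 in all adults, and all 13 tested were higher in adults. The summed level of the 21 listed stromal and skeletal markers was 6924 to 9278 CPM in adults and 76738 to 114816 CPM in perinatal libraries. The 8 erythroid markers summed to 0.522 to 1.10 CPM in adults, with all 4 listed globins (Hbb-bt, Hbb-bs, Hba-a2, Hba-a1) at 0 in every adult library, and to 771 to 1664 CPM in perinatal libraries. The 7 endothelial markers summed to 19.9 to 25.5 CPM against 54.7 to 81.8 CPM, with 6 lower in adults and Kdr higher. Markers of plasmacytoid dendritic cells went both ways, with Irf8 and the member Bst2 called higher and Tcf4 called lower among 4 tested. Of the 5 listed T and NK cell markers Cd4 alone was tested, and it was higher in adults (15.1 ± 1.87 against 0.109 ± 0.129 scaled CPM, SD, n = 3 and 3), while Nkg7 was at 0 in all adults. Their part in the results for the interferon-stimulated genes was not tested. In such bulk samples fewer cells of a type and less RNA per cell cannot be told apart.

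Upstream genes of the pathway were read from lists of other names, and their counts stand beside 37.4% of all genes called higher and 39.7% called lower. None of the interferon ligand genes searched is among the rows used here. Among the receptor chains 4 of 5 rose, led by Il10rb (log2 fold change 2.91 ± 0.12), the shared chain of the type III receptor, with Ifnar1 at 0.84 ± 0.11, while Ifngr1 was not called (-0.04 ± 0.14). Of 10 genes of JAK-STAT transmission 4 rose and 4 fell, shares near those of all genes. Tyk2 rose by 3.44 ± 0.21, and Socs3, an inhibitor of JAK signalling, fell by 3.88 ± 0.15.

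Of the 18 genes tested among nucleic acid sensors and their adaptors, 15 rose and 2 fell, where 37.4% and 39.7% of all genes did. The endosomal RNA receptor Tlr7 stood at 115 ± 22.0 CPM in adults (mean ± SD of scaled CPM, n = 3) and 0.0419 ± 0.0725 CPM in perinatal libraries (n = 3). Among 53 further interferon-stimulated genes tested, 37 rose and 10 fell, to be read against the same shares. Sp110 rose by 5.21 ± 0.19, while Ifitm1 and Ifitm2, which block virus entry, fell by 5.73 ± 0.24 and 3.23 ± 0.14. As with the 34 members, the direction was thus not shared by all.

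Summed over the 34 members, the level was 1118, 1199 and 1004 CPM in adults and 925, 762 and 773 CPM in perinatal libraries, so the sums lay closer than single genes. On TMM-scaled totals they overlapped, at 1031, 1062 and 931 CPM against 1014, 829 and 862 CPM. In the perinatal libraries Irf1 and Cxcl10 made up most of the sum. Levels of different genes can be compared per length, in the TPM that the authors deposited for the age table. On that scale Bst2 led in adults at 542 ± 35.7 TPM (SD, n = 3), followed by Irf1 at 50.02 ± 3.43 and Trim25 at 48.9 ± 5.30, which did not differ beyond their spread. In perinatal libraries Irf1 led at 279 ± 33.96 TPM, then Cxcl10 at 172 ± 30.6 and Bst2 at 90.7 ± 10.5, while Mx1 was the lowest at 0.0295 TPM.

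**Figure D3:**
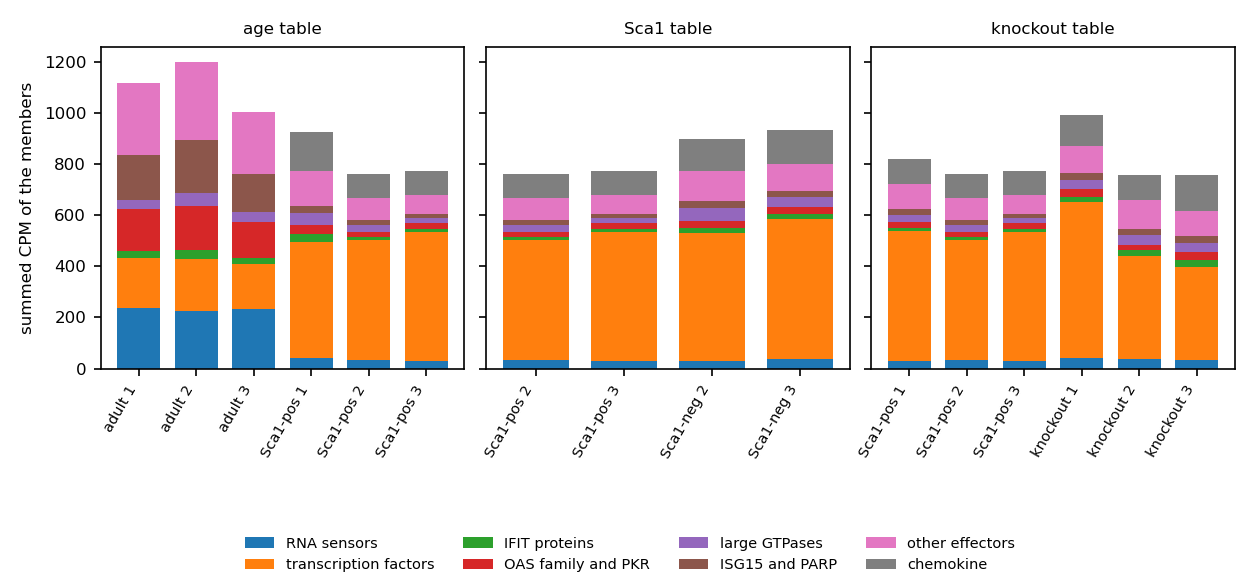
Stacked bars of the summed CPM of the members by role in each library of the 3 tables, from 0. RNA sensors, OAS genes and the PARP group take a larger part of the adult bars, and transcription factors (mostly Irf1) and the chemokine Cxcl10 a larger part of the perinatal bars.

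The adult comparison was also read by motif, beside 37.4% of all genes called higher and 39.7% called lower, without a test between the subsets. In it the 15 members with an ISRE core had a median log2 fold change of 1.68, with 10 called higher and 1 lower. The 11 members with a window but no core had a median of 0.72, with 6 higher and 2 lower, and the 8 without a window one of 2.19, with 7 higher. Both ranges were wide, from -8.37 to 5.96 and from -3.21 to 3.28, so members with the core included the furthest fall, that of Cxcl10.

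The Sca1 table compared libraries labelled Sca1-negative, in which Ly6a was high, with those labelled Sca1-positive, in which it was low. Many interferon-stimulated genes stood modestly higher in the libraries labelled Sca1-negative, but no member passed edgeR's test. Of 30 members tested, 0 were called higher and 0 lower at an adjusted p under 0.05. Over all 13529 genes tested the shares were 1.63% and 2.79%. DESeq2 called 0 members as well, though over all genes it called more than edgeR, as given in the last section. At an unadjusted p under 0.05 in edgeR, 12 members were higher and 1 lower, against 8.65% and 10.3% of all genes. The log2 fold change was above 0 in 28 of 30, with a median of 0.59 against 0.01 over all genes. The groups of 2 libraries did not overlap in 21 members higher and 1 lower, where 24.4% and 25.8% of all genes showed this.

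**Figure D4:**
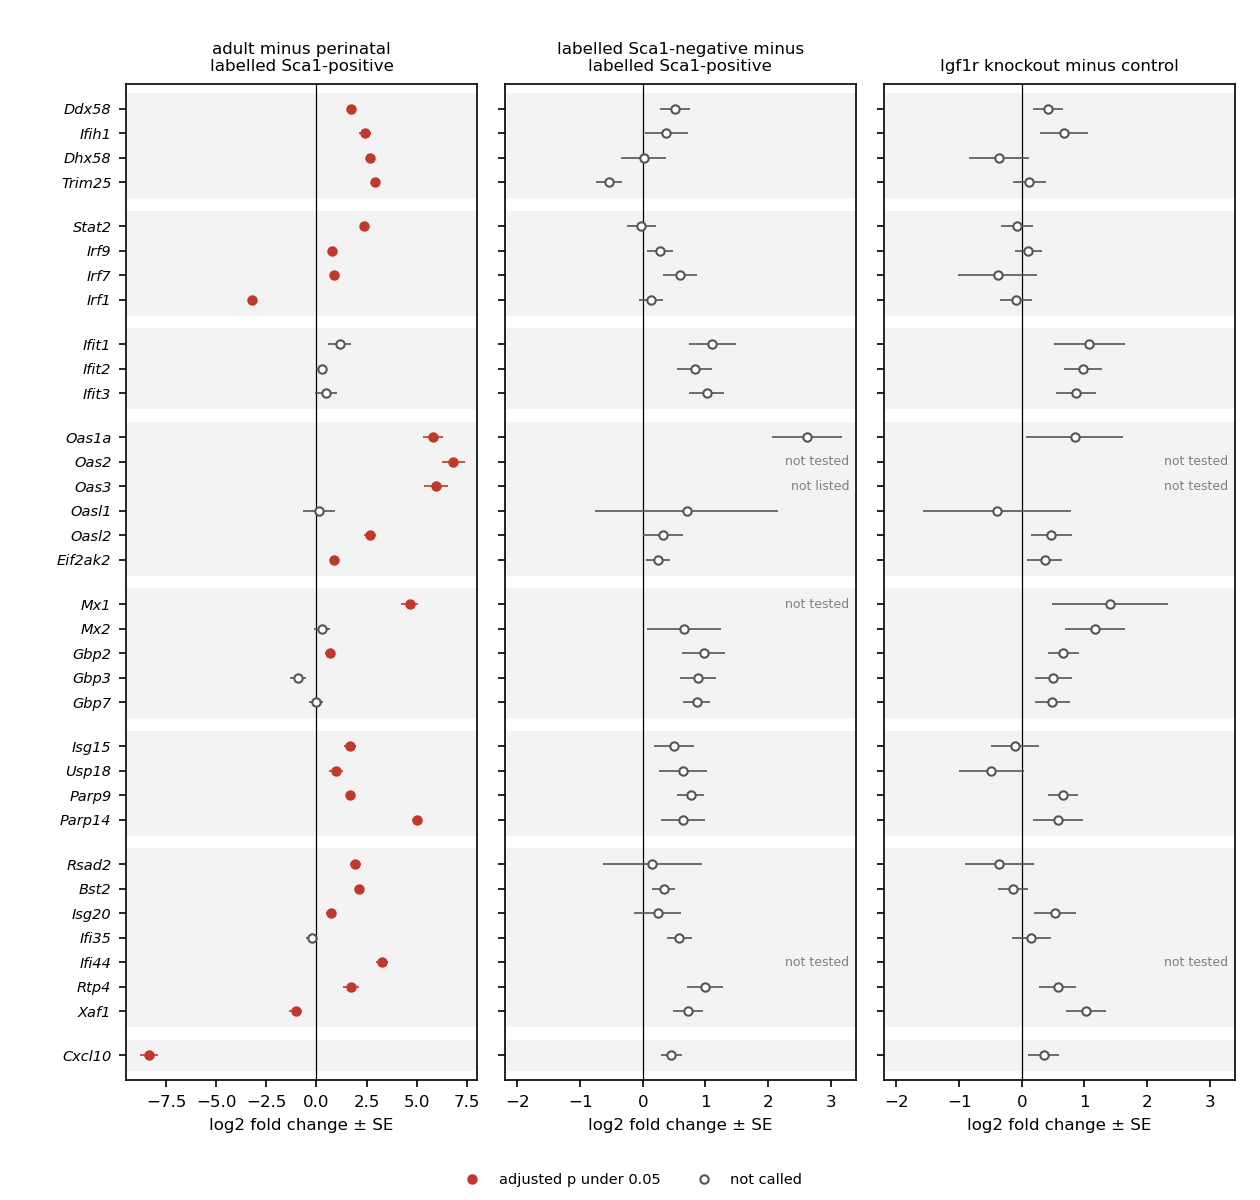
Log2 fold changes (± SE) of the members in the 3 comparisons, each from its own table, the left one on a wider x axis, filled red where the adjusted p was under 0.05. The left panel has 26 called members and the middle and right panels have 0. The comparisons share perinatal libraries 2 and 3.

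The genes named in the next sentences were chosen after their values were seen, except Irf1 and Cxcl10, the most abundant members. Oas1a, which reached the filter through the labelled Sca1-negative group only, had 23 and 22 counts there (1.51 and 1.59 CPM) and 5 and 3 counts in libraries labelled Sca1-positive (0.289 and 0.208 CPM). Its log2 fold change of 2.62 ± 0.56 missed the threshold (adjusted p = 0.0554). All of these levels lay far under the 38.0 to 45.9 CPM of the adult libraries, which stand in another table. Gbp7 had 16.3 and 16.0 CPM against 9.58 and 8.58 CPM, with a log2 fold change of 0.86 ± 0.21 (adjusted p = 0.0819).

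The IFIT genes had values on the same side: Ifit1 at 1.11 ± 0.37, Ifit2 at 0.83 ± 0.28 and Ifit3 at 1.02 ± 0.28 on the log2 scale, with adjusted p of 0.172, 0.172 and 0.107. In Ifit3 the libraries held 6.36 and 5.57 CPM against 3.12 and 2.91 CPM, without overlap. The RNA sensor ligase Trim25 lay on the other side, at 10.2 and 10.1 CPM against 15.2 and 14.9 CPM (log2 fold change -0.53 ± 0.21, adjusted p = 0.233), and Stat2 was the other member below 0 (-0.02 ± 0.23). Irf1, at 456 and 502 CPM against 425 and 469 CPM, overlapped between groups (0.13 ± 0.18). Cxcl10, at 124 and 130 CPM against 95.5 and 93.7 CPM, did not overlap but was not called (0.45 ± 0.17, adjusted p = 0.220).

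With 2 libraries per group the count of calls depended on single libraries, among the members and over all genes. Each library left out made the other of its group a lone one, taken to vary like the other group. The members' median log2 fold change was 0.47 without labelled Sca1-negative library 2 and 0.56 without library 3 of that group. It was 0.66 and 0.45 without libraries 2 and 3 labelled Sca1-positive. Gbp2 spread between libraries, at 18.1 and 10.3 CPM among labelled Sca1-negative libraries and 8.66 and 6.23 CPM among the others. The summed level of the 33 listed members was 897 and 932 CPM against 762 and 773 CPM.

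Macrophage markers gave 35.4 and 49.5 CPM in sum against 45.8 and 51.5 CPM, and stromal and skeletal markers 70498 and 84745 CPM against 109724 and 114862 CPM. The stromal and skeletal markers went both ways. Of 22 tested, 4 were called higher, among them Ly6a, and 7 lower, among them Spp1 and Sp7, against 1.63% and 2.79% of all genes. Of 7 endothelial markers 1 was called higher, Tek, at 62.9 ± 8.67 against 11.1 ± 1.31 scaled CPM (SD, n = 2 and 2), and 0 lower, with 5 of 7 log2 fold changes below 0. Erythroid markers gave 318 and 956 CPM against 1300 and 1665 CPM. The part of these markers in the results was not tested. Of the sensing list and of the further interferon-stimulated genes 1 each was called higher, Ifi204 (3.37 ± 0.43, adjusted p = 0.00996) and Ifi203 (3.09 ± 0.40, adjusted p = 0.0114), both of the DNA-binding family of Aim2-like receptors.

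The knockout table compared Igf1r knockout libraries with controls labelled Sca1-positive, to ask what loss of the growth factor receptor does to these cells. No interferon-stimulated gene passed the test. Of 31 members tested edgeR called 0 higher and 0 lower, against 0.00% and 0.0368% of the 13590 genes tested. DESeq2 called 0 members too, though over all genes it called more than edgeR, as given in the last section. At an unadjusted p under 0.05 in edgeR, 6 members were higher (Ifit2, Ifit3, Mx2, Gbp2, Parp9 and Xaf1) and 0 lower. The shares of all genes were 12.1% and 9.68%. The log2 fold change was above 0 in 22 of 31, with a median of 0.47 against -0.03 over all genes. Groups did not overlap in 10 members higher in knockouts and in 0 lower, against 14.9% and 14.1% of all genes. These 10 were Ddx58, Ifit2, Ifit3, Oasl2, Mx2, Gbp2, Parp9, Isg20, Rtp4 and Xaf1.

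The genes with values in each library here were also chosen after their values were seen, apart from Irf1 and Cxcl10. Xaf1 stood at 22.4, 47.3 and 39.4 CPM in knockouts 1 to 3 and at 18.8, 19.4 and 16.9 CPM in the controls (log2 fold change 1.03 ± 0.32, adjusted p = 0.181). Ifit2 stood at 10.1, 15.0 and 14.6 CPM in knockouts and at 6.86, 8.43 and 5.40 CPM in controls (0.98 ± 0.30, adjusted p = 0.181). In both genes knockout 1 lay nearest to the controls. Without knockout 1 both were called higher, with log2 fold changes of 1.31 and 1.18 (adjusted p = 0.0228 and 0.0292, each up to 0.586 over the alternatives). The count of genes called over all genes also changed with the library left out, as given in the last section. Parp9 was even across the knockouts, at 14.3, 15.7 and 14.4 CPM against 10.8, 9.53 and 8.31 CPM (0.66 ± 0.25, adjusted p = 0.197).

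The knockout libraries differed among themselves. Irf7 stood at 10.2, 3.85 and 1.39 CPM in knockouts and at 9.42, 5.89 and 4.36 CPM in controls, so that both the highest and the lowest libraries were knockouts. Oasl1 had 2.03, 0.369 and 0.0420 CPM in knockouts and 1.82, 0.116 and 1.11 CPM in controls. Ifit1 had the reverse order in knockouts, at 1.89, 5.11 and 5.55 CPM, with 3.11, 1.67 and 1.25 CPM in controls. In unscaled CPM knockout 1 was the highest of the knockouts in 16 members and the lowest in 6. Knockout 3 was the highest in 11 and the lowest in 17. The shares of all genes with such an order were not counted, so these numbers are no result about the members.

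The abundant members did not pass the test either. Irf1 stood at 563, 365 and 331 CPM in knockouts and 464, 425 and 469 CPM in controls (-0.10 ± 0.25, adjusted p = 0.821), with the controls inside the range of the knockouts. Fos, measured beside it, was at 3711, 2463 and 1389 CPM in knockouts and 5665, 4641 and 3992 CPM in controls. Cxcl10 stood at 122, 94.2 and 141 CPM in knockouts and 97.4, 95.5 and 93.7 CPM in controls (0.35 ± 0.25, adjusted p = 0.380). Summed over the members the knockouts gave 992, 755 and 757 CPM and the controls 819, 763 and 774 CPM, and the groups overlapped.

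Control 1, with high Ly6a, is the only control whose Ly6a goes with its label. Against it alone, in unscaled CPM, all 3 knockouts were higher in 14 of the 34 listed members and lower in 3 (Usp18, Rsad2 and Bst2), and control 1 lay within the range of the knockouts in 17. The shares of all genes with such an order were not counted, so these numbers are no result about the members. Fitted against control 1 alone, the lone control being taken to vary like the knockouts, the median log2 fold change of the members was 0.17 and 0 were called, which with 1 control carries little weight. Oas1a, which reached the filter through the knockouts only, had 1.76, 0.843 and 0.841 CPM in them. It stood at 1.33 CPM in control 1 and at 0.289 and 0.208 CPM in controls 2 and 3. Controls 2 and 3 are also in the Sca1 table, and any link of this split to Ly6a was not tested.

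**Figure D5:**
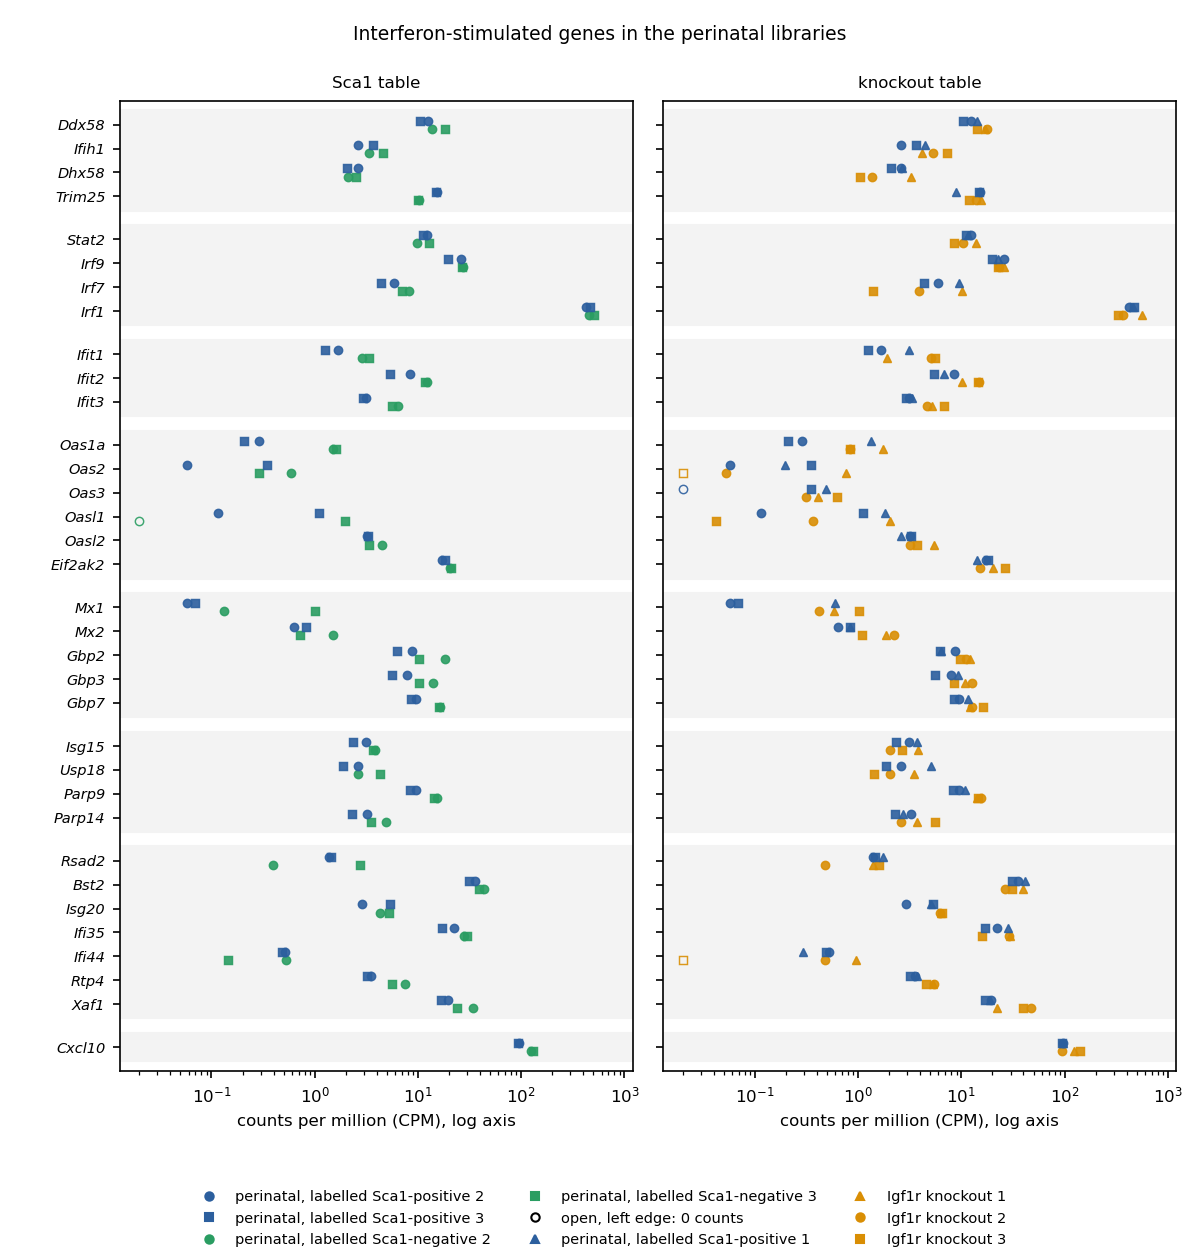
CPM of each member (log axis) in the libraries of the Sca1 table (left) and the knockout table (right), with 1 symbol per replicate and open symbols at the left edge for 0 counts. Libraries labelled Sca1-negative (green) lie above those labelled Sca1-positive (blue) in Oas1a, Ifit3 and Gbp7, and the knockouts (orange) spread widely in Irf7 and Oasl1.

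Erythroid markers summed to 157 to 248 CPM in knockouts and 1243 to 1666 CPM in controls, and stromal and skeletal markers to 77992 to 80214 CPM against 90993 to 114926 CPM, and their part in the results was not tested. None of the genes of the receptor, JAK-STAT and sensing lists, nor of the 49 further interferon-stimulated genes tested, was called in the knockouts. Among those 49, 23 had a log2 fold change above 0 and 26 below and the median was -0.12. At an unadjusted p under 0.05 they counted 4 higher and 1 lower, where 12.1% and 9.68% of all genes were. Both perinatal comparisons share libraries 2 and 3 as controls with each other and with the adult comparison, so a low value of those libraries enters all 3.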

How the data were processed

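PolyA RNA of 11 sorted mouse samples was read from 3 tables of counts per gene that the authors deposited, each analysed by itself. The submitters' processing notes name Trimmomatic 0.32, the build mm10 and DESeq2. No source used here gives the aligner, counter, annotation or strandedness. For the age and Sca1 tables the authors deposited TPM too, per the file headers, and 6 columns headed TPM in the knockout table were not used, because the deposited values lie on a log2 scale. The authors' deposited table of each comparison, which gives their log2 fold changes and adjusted p-values, calls 23 members higher and 3 lower in adults and 0 in each other comparison.

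The 34 members, the role groups and the 12 other gene lists were chosen with earlier results of these data known. Counts were filtered with filterByExpr, scaled with TMM and tested with robust glmQLFit and glmQLFTest of edgeR 4.0.16 (R 4.3.3), group being the only term, and p-values were adjusted by Benjamini-Hochberg over all genes of a table. The SE is the log2 fold change divided by the square root of F. CPM of single libraries are unscaled, and means use TMM. The script was tested on simulated data.

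The members given with values in every library were the 10 called ones with the smallest adjusted p and the 2 most abundant not called, and others were chosen after their values were seen. Of the other lists, the 3 genes with the smallest adjusted p could be named, and Ifnar1, Ifngr1 and Fos were named after their values were seen. Gene coordinates are those of GENCODE M21 by gene identifier. Alternatives were DESeq2 1.42.0, other size factors, no filter, thinned counts, a replicate block and libraries left out.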

Additional observations from a re-analysis of the deposited data

How the results depend on the processing

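For the single members tested, 475 of 508 alternative values in the adult comparison kept direction and side of the threshold, 26 lost and 7 gained a call, and 0 called values changed sign. The Sca1 comparison kept 308 of 330, with 22 gained, and the knockout comparison 431 of 433, with 2 gained. Leaving out 1 library at a time gave 20 to 25 members higher and 2 to 4 lower in adults, 0 to 13 higher for the Sca1 table and 0 to 2 higher in knockouts. Over all genes it gave 143 to 2268 higher and 317 to 2567 lower for the Sca1 table and 0 to 1532 higher and 0 to 1471 lower in knockouts, and the cause was not tested. Without both libraries whose Ly6a goes against the label, the median log2 fold change of the members was 1.06 in adults and 0.17 in knockouts. Upper quartile factors moved the median of all genes in the adult comparison from -0.06 to -0.19 and called 20 members higher and 4 lower, while no scaling factors, an alternative chosen after seeing the data, moved it to 0.21 and called 23 and 2. DESeq2 called 424 genes higher and 588 lower in the Sca1 table and 472 and 527 in the knockout table, against 220, 377, 0 and 5 with edgeR. Thinning all libraries to the smallest total gave 1 gene higher in knockouts. On TMM-scaled totals the summed CPM averaged 1008 in adults, whose libraries (931 to 1062) then overlapped the perinatal ones of the age table (829 to 1014), and, in the Sca1 table with its own factors, 759 in libraries labelled Sca1-positive. Replicate numbers were not used to pair the samples. Same-numbered libraries correlated at -0.02, -0.02 and 0.19 in the age table and 0.19, 0.12 and 0.05 in the knockout table. In the Sca1 table they correlated at 0.30 and libraries of unlike number at -0.30. With 2 libraries per group these values mirror each other, so whether numbers pair the samples there could not be decided. With a replicate block, 3 members (Oas1a, Gbp2 and Gbp7), 577 genes higher and 792 lower were called in the Sca1 table, 0 genes lower in the knockout table, and 23 members higher and 3 lower in adults. Members near the floor of 3 counts, such as Mx1, Oas2 and Oasl1 in perinatal libraries, are limited by depth.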
